A study of Vitis vinifera with 6 samples.

Results

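The genes described here are those that stood higher in every autotetraploid library than in every diploid library of grapevine terminal buds. They number 115 of 18119 genes tested, out of 29971 genes listed. The diploid was ‘Jingyanjing’ (2X), a V. vinifera grapevine, and the autotetraploid (4X) was raised from it by treating the axillary buds of tissue culture plantlets with colchicine, so the groups differ in ploidy and also in the treatment that made it. Vines of both ploidies stood in the same vineyard under the same care, and both had passed through tissue culture. Each ploidy had 3 RNA-Seq libraries, each from pooled terminal buds, the shoot tips that 4X sheds by itself. The buds were collected a week before those of 4X were shed. Shoots of 2X keep growing, so the state of the bud cannot be told apart from ploidy. The paper says that 4X plants were propagated from several lines with the same form, but the sources used here do not name the lines behind these libraries.

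The genes were chosen by their own values. A gene was tested where its mean over the 6 libraries was at least 1 FPKM, that is fragments per kilobase of transcript, scaled to the mapped fragments of the library. It was taken where, on the scale of log2(FPKM + 1), the lowest 4X library exceeded the highest 2X library by more than 0.5. This gap is called the margin. Everything said below about 4X against 2X in these genes is therefore a description, and no test of that contrast is given for them. With 3 libraries against 3, an exact two-sided permutation test of a single gene cannot go below p = 0.1. FPKM is a share of each library's RNA, so RNA per cell is not measured, and in pooled buds a change in the number of cells of a type cannot be told apart from a change in RNA per cell.

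Autopolyploids carry extra copies of the same genome, and at equal response every gene keeps its share of the RNA, so FPKM shows how a gene stands against the rest of the genome and not how many transcripts a cell holds. Ethylene is a gaseous hormone of ripening, defence and organ shedding, and its last step of synthesis, from ACC, is catalysed by ACC oxidase. ACC oxidases resemble the 2-oxoglutarate dioxygenases, a large plant family of iron enzymes that make or inactivate hormones and defence compounds. Plant lipases release fatty acids from membrane and storage lipids, among them precursors of jasmonic acid, and hydrolytic enzymes secreted into the cell wall act in defence and where organs separate.

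The libraries were of similar size. At least 1 FPKM was reached by 17816 to 18058 genes, depending on the library, and the steps of the lowest values gave relative depths of 0.978 to 1.08 against 2X replicate 1. The files hold no counts, so the counting error of a value is unknown and only the spread between libraries is given. 4X replicate 1 stood apart from the other 4X libraries over the whole table. limma called 11 genes higher and 5 lower in 4X with all libraries, but 185 higher and 569 lower without 4X replicate 1. The labelled tissue was not checked against marker genes, since the expression table pairs no identifier with a gene name and the names in the paper's tables are mostly of hormone genes.

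Size and level were described first. The rule picked 0.635% of the genes tested, against 71 genes or 0.392% for the same rule turned round, with every 4X library below every 2X library. With no margin asked, 2029 genes (11.2%) had all 4X libraries above all 2X libraries and 1604 (8.85%) had them all below. The median difference between the 4X and 2X means was 1.25 on the log2 scale, with a range of 0.56 to 3.36, where the median of all genes tested was 0.01. As a ratio of mean FPKM the median was 3.06 over the 113 genes with a finite ratio, from 1.48 to 10.4. The ratio was at least 4 in 31 genes, from 2 to under 4 in 71 and under 2 in 11.

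**Figure D1:**
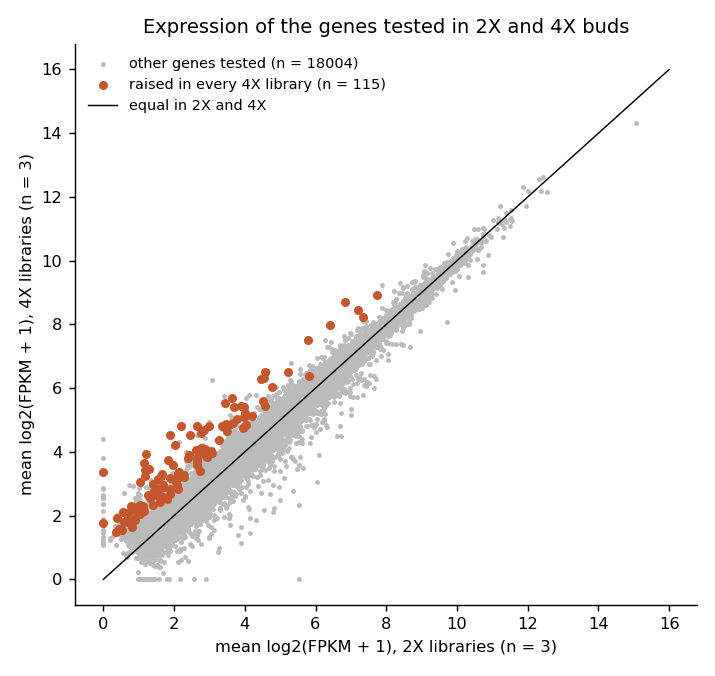
Mean log2(FPKM + 1) of the 3 libraries of 4X against that of the 3 libraries of 2X, 1 point per gene tested, with the line of equal expression. The 115 raised genes, in colour, lie above the line and mostly at low to middle levels, among other genes that lie as far above it but whose libraries overlap or have a smaller margin.

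These were mostly genes of low to middle expression. Their mean over the 6 libraries had a median of 7.03 FPKM against 17.3 FPKM for all genes tested, with medians of 3.30 in 2X and 10.8 in 4X. Means under 5 FPKM were found in 45 of them (39.1%, against 20.8% of all genes tested), means of 5 to 50 in 59, and means of at least 50 in 11 (9.57%, against 21.9%). The margin itself had a median of 0.75 and was over 1 in 29 genes. Most genes thus lay near the limit, with a margin of at most 0.75 in 60.

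Just inside the limit lay VIT_07s0104g00350 and VIT_13s0064g00410, each with a margin of 0.51, and just outside lay VIT_03s0017g01410 and VIT_04s0044g00750, each at 0.50. VIT_13s0064g00410 had 6.20, 5.99 and 4.84 FPKM in 2X replicates 1, 2 and 3 and 9.89, 9.23 and 9.30 FPKM in 4X. VIT_03s0017g01410 had 6.85, 8.89 and 8.60 FPKM in 2X and 15.5, 13.7 and 12.97 FPKM in 4X. The gene that was left out thus held as clear a gap between the ploidies as the gene that was taken, and the limit marks no break in the values.

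How many genes the rule took depended on single libraries. All 115 are kept whichever library is left out, because fewer libraries make the rule easier to meet. Without 2X replicate 2 it took 280 genes, without 4X replicate 1 it took 273, without 4X replicate 2 it took 206 and without 2X replicate 3 it took 191.

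The 3 libraries of 4X were compared next. Set against the mean of 2X, the raised genes had medians of 1.24 in 4X replicate 1, 1.16 in replicate 2 and 1.26 in replicate 3, where all genes tested gave -0.01, 0.03 and 0.02. In the 71 genes of the reversed rule the median was -0.92 in 4X replicate 1 and -1.55 and -1.56 in replicates 2 and 3. The raised genes thus stood nearly equally high in all 4X libraries, while 4X replicate 1 was the least changed library among the lowered genes. Whether the 2 sets differ in this was not tested, as both were chosen on these values.

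**Figure D2:**
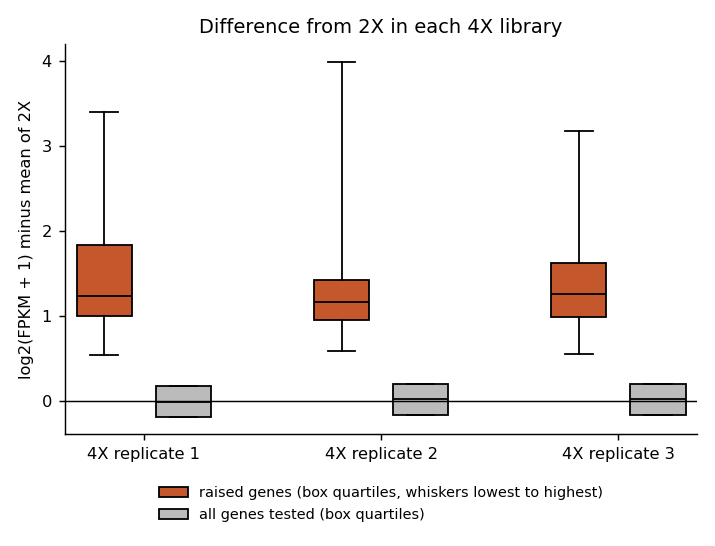
Difference between each 4X library and the mean of 2X on the log2(FPKM + 1) scale, for the 115 raised genes and for all 18119 genes tested. Boxes span the quartiles with the median as a line, and the whiskers of the raised genes reach from the lowest to the highest gene. The medians of the raised genes were 1.24, 1.16 and 1.26.

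Single genes were less even than these medians. The highest 4X value was in replicate 1 for 51 genes (44.3%, against 36.4% of all genes tested), in replicate 3 for 44 (38.3%, against 28.4%) and in replicate 2 for 20 (17.4%, against 35.2%). In 17 genes (14.8%, against 6.73% of the genes tested that were above 0 in 4X) replicate 1 was at least 1.5 times both other 4X libraries. The same held for replicate 3 in 7 genes (6.09%, against 1.65%) and for replicate 2 in 3 (2.61%, against 1.49%). All 4X libraries lay within 1.25 times of each other in 41 genes (35.7%, against 46.6%). The flattest was VIT_08s0058g00150, with 4.69, 4.71 and 4.77 FPKM in 4X after 2.90, 2.51 and 2.08 in 2X. Among its GO terms are immune response, cell death and the biosynthesis of salicylic acid, the hormone of systemic defence.

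Genes with the widest gap between the ploidies came next. VIT_13s0064g00240 had the largest margin, 2.85. It was listed at 0 in all 2X libraries and had 8.41, 15.0 and 6.22 FPKM in 4X replicates 1, 2 and 3. A second gene, VIT_09s0054g00590, was also listed at 0 in all 2X libraries and had 3.01, 1.68 and 2.67 FPKM in 4X. No ratio is given for either gene, and an entry of 0 in a table without counts can also be a failed estimate. Another 2 genes were at 0 in some of the 2X libraries only.

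VIT_03s0063g01960 had the highest finite ratio over all libraries, 10.4, but 6.85 without 4X replicate 1, where VIT_16s0098g00860 had the highest at 8.85. VIT_03s0063g01960 had 1.37, 1.35 and 0.992 FPKM in 2X and 21.6, 8.30 and 8.63 FPKM in 4X. Its value in 4X replicate 1 thus stood well above those in the other 4X libraries. VIT_00s0203g00020 was more even, going from 2.41, 3.99 and 3.03 FPKM to 15.4, 16.3 and 21.1 FPKM, a ratio of 5.6. VIT_16s0013g00810 went from 0.911, 0.943 and 1.34 FPKM to 9.62, 6.61 and 6.16 FPKM, a ratio of 7.01. No function was given in the sources used here for VIT_03s0063g01960, VIT_00s0203g00020 or VIT_16s0013g00810, nor for the 2 genes listed at 0 in all 2X libraries.

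Among the 10 genes with the largest margins, the 4X libraries varied least in VIT_12s0057g00950 and VIT_19s0090g00400. The first had 7.14, 7.19 and 4.49 FPKM in 2X and 27.2, 23.9 and 23.6 FPKM in 4X, and means of 6.27 ± 1.54 and 24.9 ± 1.98 (SD, n = 3). The second had 6.45, 14.9 and 9.76 FPKM in 2X and 42.3, 49.1 and 44.6 FPKM in 4X, and means of 10.4 ± 4.28 and 45.3 ± 3.48 (SD, n = 3). In the second gene the 2X libraries varied more than the 4X libraries on the FPKM scale, even at a level that was 4.37 times lower.

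**Figure D3:**
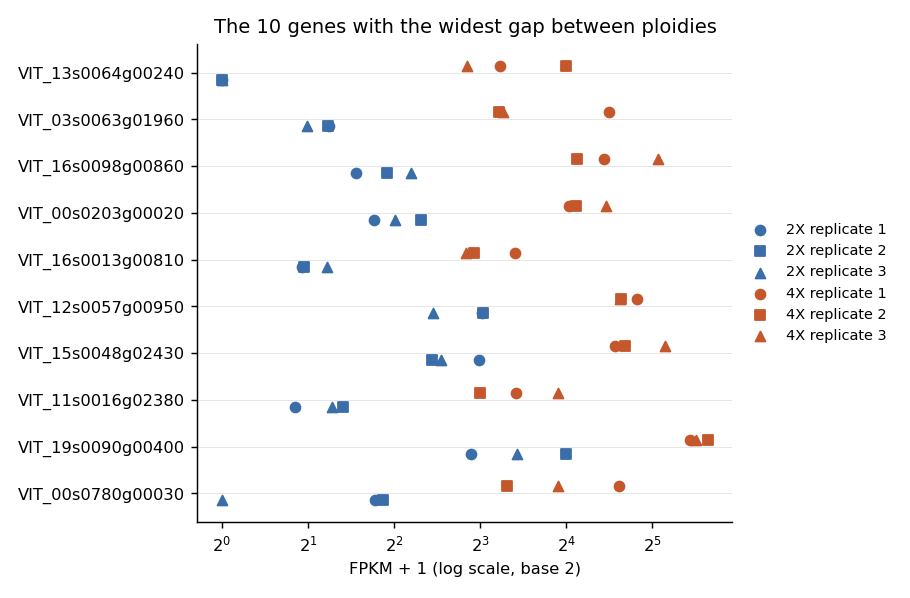
Expression of the 10 genes with the largest margins in each of the 6 libraries, as FPKM + 1 on a log axis of base 2, with ploidy by colour and replicate by symbol. In every gene the 4X points lie to the right of all 2X points, and VIT_13s0064g00240 is listed at 0 in all 2X libraries.

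limma, fitted to all genes tested, called 11 of the 115 genes at an adjusted p under 0.05, and these were all the genes it called higher (0.0607% of those tested). They were VIT_13s0064g00240, VIT_16s0098g00860, VIT_00s0203g00020, VIT_16s0013g00810, VIT_12s0057g00950, VIT_15s0048g02430, VIT_14s0066g01840, VIT_07s0005g02080, VIT_14s0060g00650, VIT_14s0030g02240 and VIT_08s0058g00590. The rule used the same contrast, so nothing is read from this count. It was also not stable, with 185 genes called higher without 4X replicate 1, 2 without 4X replicate 2, 1 without 4X replicate 3 and 0 without any of the 2X libraries, where 1506 to 2385 genes had an unadjusted p under 0.05 in either direction. Some of the called genes differed little but evenly. VIT_14s0030g02240, named after its values were seen, had 7.21, 7.36 and 7.65 FPKM in 2X and 14.6, 14.3 and 14.5 FPKM in 4X, a ratio of 1.95.

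Of the genes with the highest means over all libraries, VIT_07s0129g00930, VIT_01s0026g00570 and VIT_01s0127g00560 had ratios under the median of the raised genes, 3.06. Other genes with means of at least 50 FPKM and 4X libraries within 1.25 times of each other went both ways. The ratio was 3.77 in VIT_01s0011g03430 and 3.33 in VIT_00s0267g00030, but 1.48 in VIT_18s0001g05950. VIT_07s0129g00930 had 138, 168 and 185 FPKM in 2X and 306, 292 and 307 FPKM in 4X, a ratio of 1.84. VIT_01s0026g00570, listed under defense response, had 115, 227 and 117 FPKM in 2X and 335, 339 and 369 FPKM in 4X, a ratio of 2.27. VIT_01s0127g00560 had 264, 245 and 147 FPKM in 2X and 596, 465 and 407 FPKM in 4X, a ratio of 2.24. Their margins, 0.65, 0.56 and 0.63, were below the median of the raised genes.

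The other genes with the highest means, VIT_03s0088g00810 and VIT_12s0034g01730, were carried by 4X replicate 1. VIT_03s0088g00810, which the GO lists place in the extracellular region, had 97.6, 162 and 89.1 FPKM in 2X and 997, 285 and 253 FPKM in 4X. Its ratio of means was 4.41, with 116 ± 39.8 in 2X and 512 ± 421 in 4X (SD, n = 3), and its 4X libraries had the widest spread of all 115 genes at 3.93 times from lowest to highest. VIT_12s0034g01730 had 111, 61.6 and 85.4 FPKM in 2X and 444, 217 and 170 FPKM in 4X, a ratio of 3.22. Without 4X replicate 1 the ratios of these genes were 2.32 and 2.25. In both genes the other 4X libraries also lay above 2X, at lower levels than replicate 1.

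Genomic neighbours were read from the identifiers, which number genes in order along a chromosome and a block of assembled sequence. All 19 chromosomes held at least 1 raised gene, and 9 raised genes carry the number 00, which marks sequence not placed on a chromosome. Chromosome 16 held the most, 12 of its 641 genes tested (1.87%, against 0.635% of all genes tested). By count it was followed by chromosome 14, with 10 of 1175 genes tested (0.851%). Chromosomes 3 and 12 held 8 each, which were larger shares (1.09% and 0.990%) than that of chromosome 14. The genes were spread over 63 blocks, with at most 6 in one block, VIT_12s0057, where 98 genes were tested.

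Of the 115 genes, 10 (8.70%) were direct neighbours of another raised gene, with no listed gene between, where raised genes were 0.635% of all genes tested. They formed 4 runs. The number in runs was 28 without 2X replicate 2, 21 without 4X replicate 1, 19 without 2X replicate 3, 17 without 4X replicate 2 and 16 without 2X replicate 1, where more genes were taken, and stayed at 10 without 4X replicate 3. In the reversed set 5 of 71 genes (7.04%) did so, all in a single run. When up to 3 listed genes were allowed between neighbours, 12 raised genes were in runs. The genes that came in were VIT_03s0088g00750 and VIT_03s0088g00810, both listed under extracellular region. Neighbouring genes of a tandem family can be so alike that reads fit several copies, and how such reads were shared out is not given in the sources used here. The genes of a run may therefore not be independent measurements. Whether the genes of a run are copies of the same gene was not tested.

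The run on chromosome 14 was the clearest. VIT_14s0066g01820, VIT_14s0066g01830 and VIT_14s0066g01840 are all listed under lipase activity. VIT_14s0066g01820 had 14.03, 13.8 and 8.72 FPKM in 2X and 61.3, 37.2 and 31.4 FPKM in 4X. VIT_14s0066g01830 had 7.80, 8.22 and 5.07 FPKM in 2X and 36.3, 22.8 and 23.5 FPKM in 4X. VIT_14s0066g01840 had 1.67, 1.87 and 1.44 FPKM in 2X and 8.31, 6.77 and 5.76 FPKM in 4X.

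All 3 genes were highest in 4X replicate 1, and in all of them 2X replicate 3 was lowest. Their ratios were alike, at 3.55, 3.92 and 4.19, although their levels in 4X ran from 6.94 to 43.3 FPKM. The run had sharp edges. VIT_14s0066g01810 before it had means of 2.17 FPKM in 2X and 2.05 in 4X, and VIT_14s0066g01850 after it had 93.2 and 71.4 FPKM, with overlapping libraries in both genes.

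The run on chromosome 12 had no such edges. VIT_12s0057g00080 had 3.51, 4.38 and 5.06 FPKM in 2X and 18.3, 10.7 and 10.8 FPKM in 4X. VIT_12s0057g00090 had 9.63, 12.3 and 13.2 FPKM in 2X and 28.7, 24.3 and 35.2 FPKM in 4X. VIT_12s0057g00100 had 17.3, 21.3 and 28.4 FPKM in 2X and 45.7, 44.7 and 53.1 FPKM in 4X.

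In all 3 genes the 2X libraries had the same order, lowest in replicate 1 and highest in replicate 3. The genes on either side were also higher in every 4X library, by less than the margin of 0.5. VIT_12s0057g00070 went from a mean of 37.1 to 67.3 FPKM, VIT_12s0057g00110 from 13.02 to 18.5 FPKM and VIT_12s0057g00120 from 35.0 to 59.4 FPKM. Thus 6 genes in a row had no overlap between the ploidies. None of the raised genes in this run had a function in the sources used here.

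**Figure D4:**
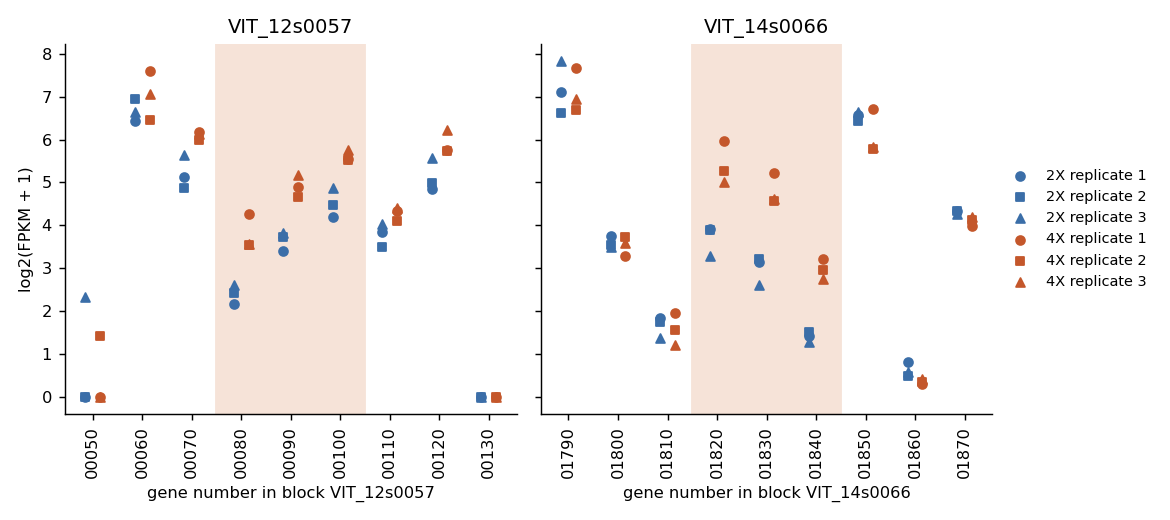
Expression in each library, as log2(FPKM + 1), of the runs of 3 raised genes on chromosomes 12 and 14 (shaded) and of the 3 listed genes on each side, in the order of their identifiers. On chromosome 14 none of the genes shown beside the run was higher in every 4X library, while on chromosome 12 the genes VIT_12s0057g00070, VIT_12s0057g00110 and VIT_12s0057g00120 were also higher in every 4X library.

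The remaining runs were pairs. On unplaced sequence, VIT_00s0780g00030 had 2.42, 2.67 and 0 FPKM in 2X and 23.5, 8.95 and 14.02 FPKM in 4X, and VIT_00s0780g00040 had 0.706, 0.915 and 0.448 FPKM in 2X and 2.61, 2.29 and 2.36 FPKM in 4X. On chromosome 16, VIT_16s0050g01690 had 0.955, 0.962 and 0.721 FPKM in 2X and 3.29, 2.26 and 2.53 FPKM in 4X, and VIT_16s0050g01700 had 0.858, 1.05 and 0.448 FPKM in 2X and 2.74, 2.40 and 2.55 FPKM in 4X. The pair on chromosome 16 was alike in level as well as in ratio, 3.06 and 3.26. The pair on unplaced sequence was not, with ratios of 9.13 and 3.51.

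Around all raised genes, 124 genes next to one of them were tested and were not themselves taken by the rule. Of these, 25 (20.2%) were higher in every 4X library, where the share over all genes tested was 11.2%, and 10 (8.06%) were lower in every 4X library, against 8.85%. Their median difference was 0.05 on the log2 scale. The neighbours of the raised genes thus centred near the value of all genes. The VIT_16s0013 block held both kinds of gene. The raised genes VIT_16s0013g00070, VIT_16s0013g00440 and VIT_16s0013g00810 lie in the same block as the only run of the reversed set, 5 genes from VIT_16s0013g00950 to VIT_16s0013g01000. The first of that run had 63.5, 62.3 and 67.6 FPKM in 2X and 20.2, 2.86 and 6.04 FPKM in 4X.

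Functions came from the paper's supplementary tables, since the reference table of gene names held 0 of the identifiers. Of the 115 genes, 32 had an entry in them and 83 had none. The GO lists, the list of genes with methylation differences and the hormone genes of the primer table had all been chosen among genes that differed in these same libraries. Their directions were thus largely set by that choice and are not independent evidence. Not every listed gene followed it on the scale used here, as the lowest difference under extracellular region was -0.77. In the complete GO lists, 109 genes were tested and 23 of them (21.1%) were raised genes. The terms are those of increased genes only and some lists were shortened in the copy used here, so a missing term says nothing about a gene.

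Ethylene synthesis was represented by ACO1, or VIT_11s0016g02380, an ACC oxidase on chromosome 11. ACO1 had 0.807, 1.65 and 1.43 FPKM in 2X and 9.71, 6.96 and 13.9 FPKM in 4X. The means were 1.30 ± 0.439 and 10.2 ± 3.52 (SD, n = 3), a ratio of 7.87 and a margin of 1.58. The gene was near 1 FPKM in all 2X libraries and many times higher in all 4X libraries. It was also listed with a region of lower methylation in its gene body in 4X (a hypo-DMR). The primers listed for its qPCR under the name ACO1 are shown in lower case throughout, as no base was singled out. Whether they match this transcript alone was not checked.
ACO1 forward: gttctttcagatcgacaacca
ACO1 reverse: agatgcagtttctttatcctcc

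Of the 10 ethylene-related genes in the primer table, 8 were tested, and their median difference was 1.34. These genes had been picked as increased in 4X, so nothing is read from their direction. In 5 of the 8 every 4X library was above every 2X library (11.2% of all genes tested), and among the 8 ACO1 alone passed the margin. Nearest to it was PR-4, or VIT_14s0081g00030, a pathogenesis-related protein that went from 78.3 to 183 FPKM with a margin of 0.48. PR-4B, or VIT_14s0081g00020, and the ethylene response factor ERFB-6, or VIT_09s0002g09140, had differences of 1.53 and 1.54 but margins of 0.19 and 0.29, as their libraries spread more widely.

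None of the abscisic acid, auxin and cytokinin genes of that table was a raised gene by the rule, and their directions too were fixed by the choice of the lists. Of the 9 abscisic acid genes, all tested, 4 had every 4X library above 2X (11.2% of all genes tested) and 1 had every one below (8.85%). Of the 12 auxin genes, 0 were above in every 4X library and 8 were below (8.85% of all genes tested), with a median difference of -0.68. Of the 3 cytokinin genes 0 were above (11.2% of all genes tested) and 2 were below (8.85%).

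Dioxygenase activity was the GO term with the most raised genes among the complete lists. Of its 13 genes 12 were tested, and 10 of these were higher in every 4X library (11.2% of all genes tested). Raised genes were 6 of the 12, against 0.635% of all genes tested and 21.1% over all complete GO lists. The study had chosen the listed genes as increased in these libraries, so nothing is read from the shares over all genes tested. VIT_16s0098g00860 had 1.94, 2.77 and 3.58 FPKM in 2X and 20.7, 16.4 and 32.4 FPKM in 4X, a ratio of 8.40. It is described as a putative 2OG-Fe(II) oxygenase associated with defence and needed for susceptibility to downy mildew, and it too was listed with a hypo-DMR. VIT_15s0048g02430 had 6.90, 4.43 and 4.83 FPKM in 2X and 22.8, 24.7 and 34.5 FPKM in 4X, a ratio of 5.07. ACO1 was the third gene of this term by margin.

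The other dioxygenases among the raised genes were VIT_17s0000g05790, VIT_08s0056g01300 and VIT_13s0047g00210, named because they complete the group. VIT_17s0000g05790 had 3.81, 7.67 and 6.64 FPKM in 2X and 21.1, 21.9 and 26.9 FPKM in 4X. VIT_08s0056g01300 had 3.06, 2.63 and 4.55 FPKM in 2X and 8.30, 9.10 and 9.78 FPKM in 4X. VIT_13s0047g00210 had 5.03, 7.60 and 4.85 FPKM in 2X and 13.6, 23.9 and 13.1 FPKM in 4X. Of the 6 dioxygenases 5 were highest in 4X replicate 3, and VIT_13s0047g00210 was highest in replicate 2. They lie on different chromosomes and none was in a run.

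Of the 12 genes under lipase activity 10 were tested, and 8 of these were higher in every 4X library (11.2% of all genes tested). Raised genes were 4 of the 10, against 0.635% of all genes tested and 21.1% over all complete GO lists. This list too was chosen among increased genes, so nothing is read from the shares over all genes tested. The 4 were the 3 neighbouring genes on chromosome 14 and VIT_05s0077g01720. VIT_05s0077g01720 had 2.35, 2.14 and 1.75 FPKM in 2X and 7.69, 4.06 and 4.14 FPKM in 4X. All 4 lipases were highest in 4X replicate 1. Over all 115 raised genes, replicate 1 was the highest 4X library in 44.3% and replicate 3 in 38.3%. Of the 4 lipases 3 are neighbouring genes, and whether the dioxygenases and the lipases differ in this was not tested.

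**Figure D5:**
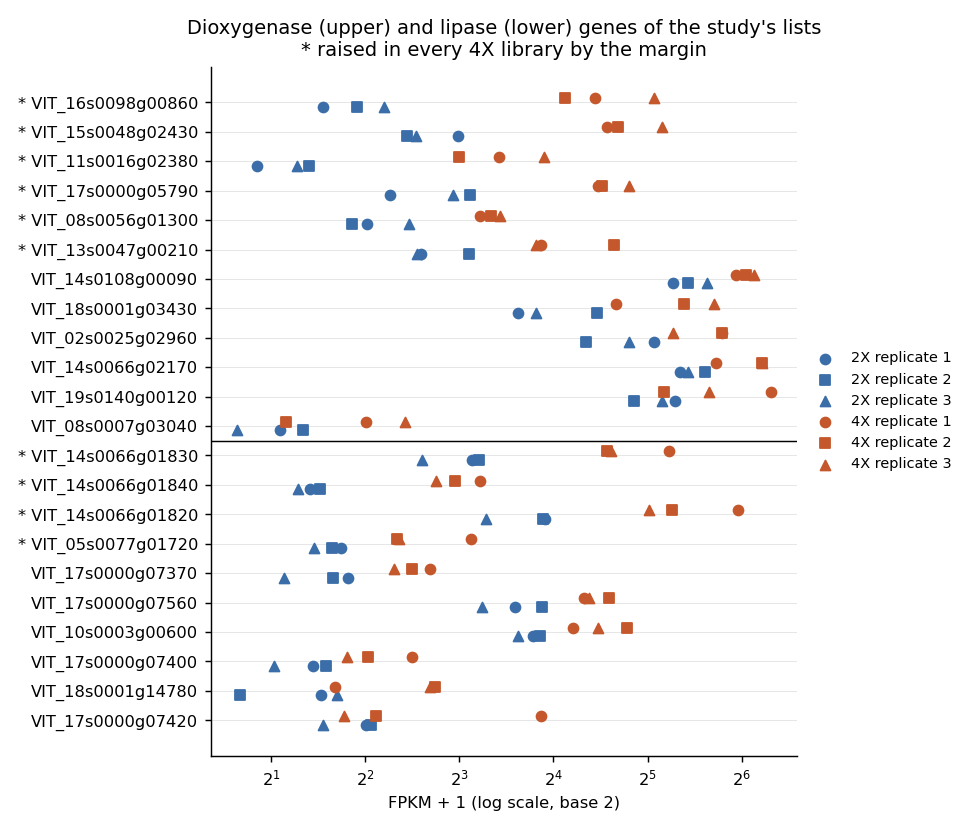
Expression in each library, as FPKM + 1 on a log axis of base 2, of the 12 tested genes under dioxygenase activity (upper) and the 10 under lipase activity (lower), with ploidy by colour, replicate by symbol and a star for the raised genes. Within 4X, 5 of the 6 raised dioxygenases were highest in replicate 3 and all 4 raised lipases in replicate 1.

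The share of raised genes in the terms that follow is to be read against 21.1% over all complete GO lists and 0.635% over all genes tested. Of the 22 genes under immune system process, all tested, 14 were higher in every 4X library (11.2% of all genes tested). Of these only VIT_08s0058g00150 passed the margin. Cell death held 3 raised genes of 14 tested, a share close to that over all these lists. The most abundant of these in 4X was VIT_00s0270g00120, with 10.4, 6.80 and 21.4 FPKM in 2X and 32.1, 58.9 and 66.3 FPKM in 4X, a wide spread within both ploidies. Of 13 genes tested under response to jasmonic acid 2 were raised genes, and of 6 under the unfolded protein response of the endoplasmic reticulum 2 were. VIT_07s0031g01710, listed under response to jasmonic acid and as a transcription regulator, had 8.85, 13.9 and 8.24 FPKM in 2X and 41.3, 25.8 and 21.1 FPKM in 4X. Protein phosphorylation, the term of kinases, held 6 raised genes in a list that was shortened.

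Monocarboxylic acid biosynthetic process held 5 raised genes of 16 tested. The most abundant of them in 4X was VIT_08s0058g00590, with 16.8, 17.6 and 17.5 FPKM in 2X and 36.5, 30.2 and 35.5 FPKM in 4X, a ratio of 1.96 with very even 2X libraries. Extracellular region held 4 of 22 tested, led by VIT_03s0088g00810. Cellular response to acid chemical held 3 of 18, with VIT_07s0031g01710 the most abundant.

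Of the 12 genes listed with methylation differences in the gene body 6 were tested. Of these, 3 were raised genes (0.635% of all genes tested) and 2 were lower in every 4X library (8.85%). The differences of the 6 ran from -2.75 to 2.65, as the paper listed strongly changed genes of both directions. Their median of 0.25 thus falls between the 2 directions and does not mean little change. In the paper every increased gene of this list held a hypo-DMR, alone or with a region of higher methylation. That the 3 raised genes all had a hypo-DMR was thus fixed by the list. Besides ACO1 and the downy mildew oxygenase, they included VIT_06s0004g02060, described as a putative aldehyde dehydrogenase, an enzyme class that oxidises reactive aldehydes. VIT_06s0004g02060 had 0.920, 0.868 and 0.831 FPKM in 2X and 2.97, 3.36 and 4.35 FPKM in 4X, means of 0.873 ± 0.0446 and 3.56 ± 0.713 (SD, n = 3). All 3 genes were highest in 4X replicate 3, as were 38.3% of all raised genes. ACO1 and the downy mildew oxygenase were already counted so among the dioxygenases. Methylation was not analysed here, and whether it moved with these values was not tested.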

How the data were processed

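After trimming by quality with the FASTX-Toolkit, the authors aligned the reads to the grapevine genome in Ensembl Plants with TopHat2 2.0.14, which runs Bowtie2, and used Cufflinks 2.2.1 for differential expression. The authors deposited FPKM values per gene and library. The genome build, the tool that gave the FPKM values, the use of strand and the handling of reads with several matches are not given in the sources used here. FPKM were used as deposited, and 0 columns of values were left out.

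Samples were grouped by the ploidy in their labels. The paper's methods call the libraries biological replicates, each mixed from buds of several independent vines. Values were taken as log2(FPKM + 1), with a pseudocount of 1, which understates the change of low genes. limma 3.58.1 in R 4.3.3, with a variance trend and Benjamini-Hochberg adjustment over 18119 genes, gave the calls at 0.05. It was tested on simulated data. Python 3.11.15 with pandas 2.3.3, numpy 2.4.6 and matplotlib 3.10.9 gave the counts and plots.

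Neighbours share the chromosome and block of their identifier with no listed gene between. The members and lists were chosen with earlier results of these data known. Genes were named by rule: entries in the primer or DMR table, the 10 largest margins, the 5 highest means, all runs, the member highest in 4X of each complete GO list with at least 3 members, those around the limit, and those at 0 in 2X. Genes named outside it, by their group or their values, were chosen after their values were seen. A count by families of described genes was planned but not made, since the reference table held 0 of the identifiers. The alternatives were a pseudocount of 0.1, other filters and margins, quantile normalization or scaling to the median, limma with no variance trend or with replicate number as a block, and leaving out each library.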

Additional observations from a re-analysis of the deposited data

How the results depend on the processing

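The number of raised genes was 115 and followed the strictness of the rule. It was 371 with a margin of 0.25, 29 with a margin of 1 and 70 with a mean of at least 5 FPKM, and 141 to 280 with a library left out. The number in runs of neighbours was 39, 3 and 5 under the same changes, and 10 to 28 with a library left out. The median difference was 0.74 with a margin of 0.25 and 1.83 with a margin of 1, and 1.05 to 1.22 with a library left out. A pseudocount of 0.1 gave 159 genes, no filter 121, a filter on either ploidy 119, median scaling 113 and quantile normalization 111, of which 109 were among the 115. The limma calls ranged from 0 to 754 with a library left out, the highest without 4X replicate 1, and the cause was not tested. Deviations of libraries with the same number correlated at -0.01, -0.05 and 0.09, and those with unlike numbers at -0.13 to 0.13. Libraries of the same number were thus no more alike by this measure. Whether they shared a batch was not tested. With the replicate number as a block limma called 0 genes, 2290 having an unadjusted p under 0.05, against 2594 without the block. No other tool was run. Of 387 values of the 33 named genes under the alternatives, 0 changed sign and 13 moved by more than 1 SD, all with the pseudocount of 0.1, which weighs low values more. The ploidies did not overlap in any named gene, those just outside the limit included. Leaving out a library or changing the pseudocount or the filter could therefore not reverse a sign. Only median scaling and quantile normalization could have done so, and the lack of reversals elsewhere is no sign of stability. Without counts, the depth behind low values is unknown, and 45 of the 115 genes had a mean under 5 FPKM.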

Other observations

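Below the limit of 1 FPKM, 7 genes had a lowest 4X library at least 3 times the highest 2X library. They were chosen after their values were seen and are too low for a firm ratio. VIT_14s0066g02670 and VIT_14s0066g02680 carry adjacent identifiers. The first had 0.106, 0.155 and 0.109 FPKM in 2X and 1.11, 0.475 and 0.672 FPKM in 4X, and the second 0.132, 0.192 and 0.0678 FPKM in 2X and 1.03, 0.669 and 1.23 FPKM in 4X. VIT_01s0127g00530, in the block of the abundant raised gene VIT_01s0127g00560, had 0.220, 0.134 and 0.158 FPKM in 2X and 0.771, 1.76 and 1.40 FPKM in 4X.

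GLIP1, or VIT_09s0002g00540, a GDSL lipase gene of the ethylene list, was also under the limit. Its means were 0.214 ± 0.153 FPKM in 2X and 1.10 FPKM in 4X (n = 3), with every 4X library above every 2X library. The lipase gene VIT_05s0077g01730, next to the raised gene VIT_05s0077g01720, had means of 0.528 and 1.33 FPKM.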
